A study of Mus musculus with 4 samples.

Results

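The 9 genes described here encode colony-stimulating factor (CSF) ligands and receptors and the transcription factors of the myeloid lineage. They are the ligands Csf1 and Il34, the receptors Csf1r, Csf2ra, Csf2rb and Csf3r, and the lineage factors Spi1, Irf8 and Runx1. They were taken by gene symbol, by a rule that uses no measured value, from the 54532 genes counted in both deposited tables. Each symbol matched 1 gene, and the symbols were chosen with earlier results of these data known. Poly-A-selected RNA was sequenced from primary microglia of CD1 mice, an outbred strain, kept for 24 h in serum-free medium with 1 µM EGCG (epigallocatechin gallate, a flavan-3-ol of green tea) or with the matching amount of the solvent DMSO (Vehicle). Each group had 2 libraries, replicate 1 and replicate 2, and the labels name no transgene or deletion in any of them. The cells came from the cortex of male pups in the first days of life and had grown in a mixed glial culture given GM-CSF, the product of Csf2, before the astrocyte layer was taken off with trypsin. The serum-free medium of both groups contained IL-34, GM-CSF and TGFβ2. Ligands of CSF1R and of the GM-CSF receptor were therefore supplied to every culture, and no culture without them was analysed here.

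Microglia are the resident macrophages of the brain, and they depend on the receptor tyrosine kinase CSF1R for survival and proliferation. CSF1R is bound by CSF1 and by IL-34, which in the brain is made mainly by neurons. GM-CSF signals through a complex of the ligand-binding chain CSF2RA and the shared beta chain CSF2RB by way of JAK2 and STAT5, and G-CSF signals through CSF3R, a receptor best known from neutrophils. PU.1 (the product of Spi1), IRF8 and RUNX1 are transcription factors of myeloid development, and PU.1 is known to bind regulatory DNA of many receptor genes of this group.

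The 4 libraries held 33805071 to 54970300 counted fragments, with EGCG replicate 2 the deepest at 1.51 times Vehicle replicate 2. At these depths a count of 3 equals 0.0544 to 0.0936 CPM (counts scaled to library size, here with TMM factors), the level below which a gene was treated as not detectable. All 13 microglial markers, among them Cx3cr1, P2ry12 and Tmem119, lay above that floor in every library, and their summed level was 6593 to 9650 CPM. Markers of other cells summed to lower levels, from 13.9 to 19.8 CPM for the 8 astrocyte markers and from 119 to 160.1 CPM for the 8 oligodendrocyte lineage markers. The 8 stromal markers summed to 434 CPM in Vehicle replicate 1, 2.00 CPM in EGCG replicate 1, 162 CPM in Vehicle replicate 2 and 182 CPM in EGCG replicate 2, so EGCG replicate 1 stood apart. The labels call the replicates biological, but do not say whether the libraries of one number came from one culture. The p-values measure only the spread between these libraries.

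The first question put to the 9 genes was whether their levels differed between EGCG and Vehicle, the comparison the study was built on, and the other was how much they differed between its replicates. With 2 libraries against 2, the smallest two-sided p of an exact permutation test on a single value is 0.333, and tests were therefore read from a model fitted across 13811 protein-coding genes with edgeR. A call was an unadjusted p below 0.05, the level at which the study listed genes, and Benjamini-Hochberg adjusted p-values over all genes tested are given beside it. Of the 9 members, 8 passed the filter of 10 counts summed over the libraries, and Il34 did not. The libraries come from bulk cultures, in which fewer cells of a type and less RNA per cell cannot be told apart.

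Csf1r, Csf3r, Csf1 and Csf2ra differed most between the replicates. The bases upstream of the RefSeq start sites of 3 of them are shown here. These 3 are the members with a promoter in the RefSeq table whose levels moved furthest between the replicates, one upward and the others downward. A promoter was matched for 5 of the 9 members, namely Csf1, Csf2ra, Csf3r, Irf8 and Runx1. The 250 bases before the RefSeq start are printed 5′ to 3′ on the strand of the gene in build GRCm38.p6, with GAGGAA, a core of PU.1-type ETS sites, in capitals where it occurs on either strand. They lie at chr4:126024409-126024658 on the plus strand for Csf3r, at chr19:61228419-61228668 on the minus strand for Csf2ra and at chr3:107760470-107760719 on the minus strand for Csf1.
Csf3r: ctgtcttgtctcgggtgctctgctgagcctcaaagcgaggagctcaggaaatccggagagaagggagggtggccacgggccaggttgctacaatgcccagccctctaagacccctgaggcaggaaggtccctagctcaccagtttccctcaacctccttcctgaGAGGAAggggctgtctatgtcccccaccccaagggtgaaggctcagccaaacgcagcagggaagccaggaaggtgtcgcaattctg
Csf2ra: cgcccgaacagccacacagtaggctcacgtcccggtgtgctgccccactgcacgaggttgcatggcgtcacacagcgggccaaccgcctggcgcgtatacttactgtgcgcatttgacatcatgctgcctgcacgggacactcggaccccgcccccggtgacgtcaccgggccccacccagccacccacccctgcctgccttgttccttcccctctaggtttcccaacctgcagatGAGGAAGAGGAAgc
Csf1: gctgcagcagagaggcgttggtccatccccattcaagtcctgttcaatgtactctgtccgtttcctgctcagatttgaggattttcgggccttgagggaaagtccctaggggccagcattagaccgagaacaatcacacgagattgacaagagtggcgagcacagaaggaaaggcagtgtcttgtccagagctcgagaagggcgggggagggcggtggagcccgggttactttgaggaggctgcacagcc

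The Csf3r window held 1 match to GAGGAA and the Csf2ra window held 2 that follow each other directly, while the Csf1 window held none. The RefSeq start of Csf3r lies 109 bases inside the gene as deposited, and the Csf3r match falls in that stretch. In the GENCODE M21 annotation the minus-strand gene Csf2ra begins at chr19:61228429, and the 2 matches in its window span that base. Of the other windows, the proximal start of Runx1 had 1 match, and the distal start of Runx1 and both starts of Irf8 had none. GAGGAA occurred in 23.3% of 32851 RefSeq promoter windows of this length. The ETS and IRF composite element (EICE, in 2.3% of windows), a RUNX motif (TGTGGT, in 14%) and a C/EBP motif (TTGCNNAA, in 9.56%), searched on both strands and allowed to overlap, had no match in any member window. These are matches of letters in a window and no record of binding.

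Of the ligands, Csf1 (ENSMUSG00000014599, chr3:107741048-107760469, minus strand), the growth factor that CSF1R takes its name from, was expressed by the cultures themselves. Its level was 265 CPM in Vehicle replicate 1, 256 CPM in EGCG replicate 1, 127 CPM in Vehicle replicate 2 and 135 CPM in EGCG replicate 2. Both libraries of replicate 1 lay above both of replicate 2, and within a replicate Vehicle and EGCG were close to each other. The stromal marker sums of Vehicle replicate 1 and EGCG replicate 1 were 434 and 2.00 CPM. Which cells made the Csf1 RNA was not tested. Il34 (ENSMUSG00000031750, chr8:110741829-110805924, minus strand), the other CSF1R ligand, had 4 counts with Vehicle and 1 with EGCG in replicate 1, and 2 and 1 in replicate 2. Only the 4 counts of Vehicle replicate 1, 0.122 CPM, lay above the 3-count floor, so Il34 was at the edge of detection and no fold change is given for it. The IL-34 protein added to the medium is not measured by these counts.

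Csf1r (ENSMUSG00000024621, chr18:61105572-61132149, plus strand) had 1195 CPM in Vehicle replicate 1, 1264 CPM in EGCG replicate 1, 2373 CPM in Vehicle replicate 2 and 2403 CPM in EGCG replicate 2. Here replicate 2 was the higher, in both treatments, the opposite order to that of its ligand Csf1. Per kilobase of gene length, which permits comparison between genes, this put Csf1r above 99.0% of the tested genes in both libraries of replicate 1 and above 99.6% in both of replicate 2. The last exons of Csf1r and of Hmgxb3, a gene on the opposite strand, overlap, and 873 bases of their transcripts are complementary. The library kit kept strand information, but whether counting used it is not given in the sources used here.

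The GM-CSF receptor chains were both abundant. Csf2ra (ENSMUSG00000059326, chr19:61224402-61228418, minus strand), the chain that binds GM-CSF, had 568 CPM in Vehicle replicate 1, 542 CPM in EGCG replicate 1, 293 CPM in Vehicle replicate 2 and 306 CPM in EGCG replicate 2. Its libraries fell into the same order as those of Csf1, with replicate 1 higher and no overlap between the replicates. Csf2rb (ENSMUSG00000071713, chr15:78325752-78353847, plus strand), the signalling chain also used by the interleukin 3 and interleukin 5 receptors, had 1312 and 1261 CPM in Vehicle and EGCG of replicate 1, and 1068 and 1085 CPM in replicate 2. The replicates again did not overlap, but they stood closer together than for Csf2ra. Csf2rb2, a second beta chain that mice carry and that pairs with the interleukin 3 receptor, has a transcript 95.1% identical to that of Csf2rb over 3108 of 4900 bases, so reads could be split between these genes. It had 481, 437, 475 and 489 CPM in Vehicle replicate 1, EGCG replicate 1, Vehicle replicate 2 and EGCG replicate 2, with overlapping replicates.

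Csf3r (ENSMUSG00000028859, chr4:126024550-126044440, plus strand), the G-CSF receptor, had the widest spread of the tested members as a ratio between libraries. It had 98.3 CPM in Vehicle replicate 1, 109.7 CPM in EGCG replicate 1, 364 CPM in Vehicle replicate 2 and 349 CPM in EGCG replicate 2. Among tested genes its level per length ranked at the 88.1 and 89.0 percentile in the libraries of replicate 1 and at the 97.1 and 96.9 percentile in those of replicate 2. Of the 10 granulocyte markers 4 were tested, and all 4 were called lower in replicate 2, as were 27.0% of all genes tested. The summed level of the 10 was 372 and 336 CPM in replicate 1 and 44.6 and 41.7 CPM in replicate 2. Most of that sum was Mmp8, a matrix metalloproteinase, at 360 and 321 CPM in replicate 1 and 41.5 and 37.97 CPM in replicate 2, and S100a9, Ly6g, Elane and Retnlg had 0 counts in every library. An annotated gene model, AC105061.2, has a transcript 96.8% identical to that of Csf3r over 1518 of 3481 bases and was not analysed here.

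The lineage factors spanned narrower ranges than Csf1r, Csf2ra and Csf3r. Spi1 (ENSMUSG00000002111, chr2:91082390-91115756, plus strand), which encodes PU.1, had 429 CPM in Vehicle replicate 1, 467 CPM in EGCG replicate 1, 449.8 CPM in Vehicle replicate 2 and 437 CPM in EGCG replicate 2. Its values overlapped both between treatments and between replicates, the only tested member for which the replicates overlapped. Irf8 (ENSMUSG00000041515, chr8:120736358-120756694, plus strand), a partner of PU.1 on composite DNA sites, had 315 and 313 CPM in Vehicle and EGCG of replicate 1 and 246 and 255 CPM in replicate 2. Runx1 (ENSMUSG00000022952, chr16:92601466-92826149, minus strand), a Runt-domain factor of early blood development, had 165 and 168 CPM in replicate 1 and 203 and 196 CPM in replicate 2. Irf8 was thus higher in replicate 1 and Runx1 higher in replicate 2, and neither overlapped between the replicates. Antisense gene models overlap Runx1 and Il34, and the gene model Gm20388 overlaps Irf8 on the same strand.

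**Figure D1:**
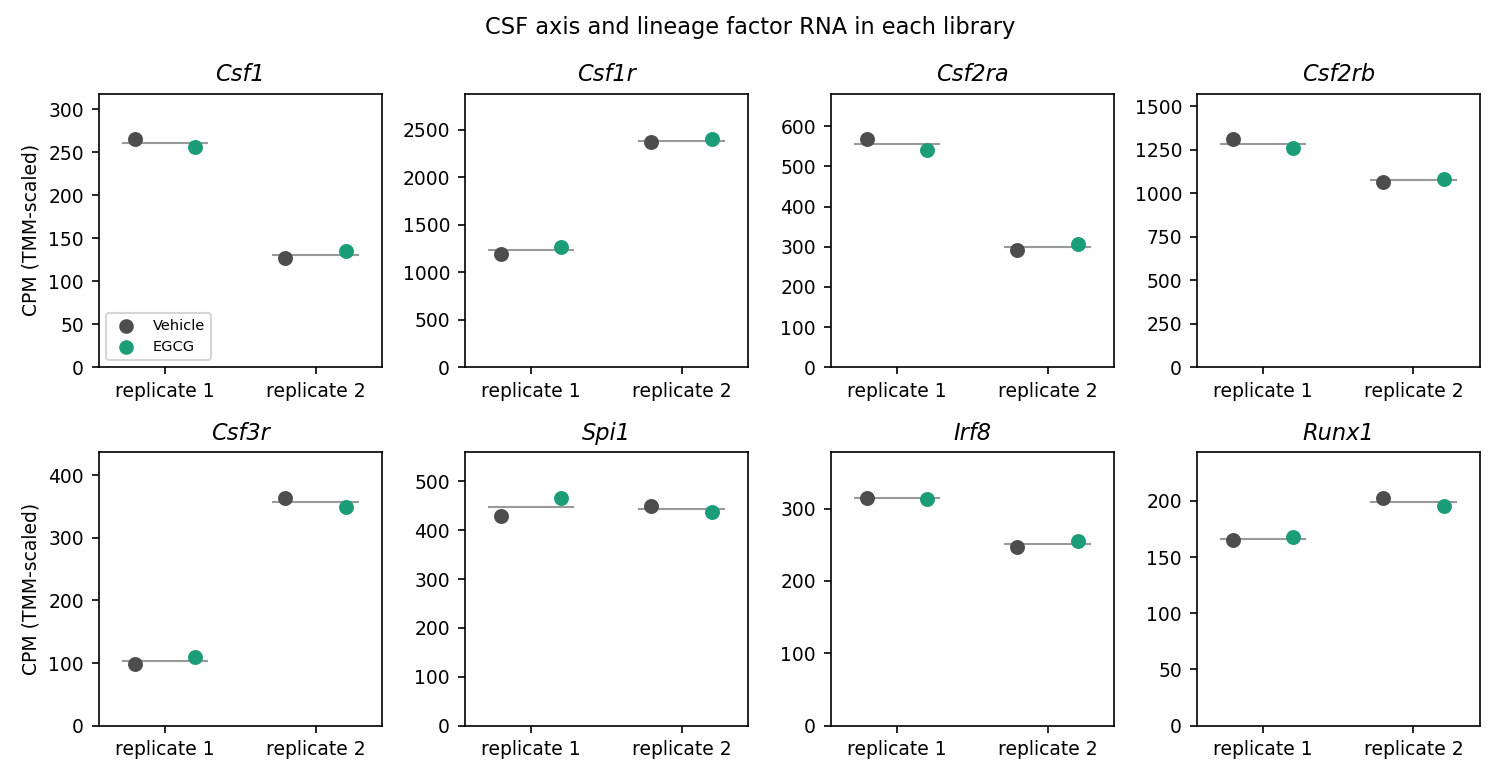
Level of the 8 tested members in each of the 4 libraries, in TMM-scaled CPM on linear axes from 0, with Vehicle and EGCG as separate points and a line at the mean of each replicate. Points of one replicate lie together, and for Csf1r, Csf3r, Csf1 and Csf2ra the pairs are well apart, while the 4 points of Spi1 lie between 429 and 467 CPM.

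The plot of member levels by library shows the same arrangement for most members: the treatments of one replicate coincide and the replicates separate. Between replicates, 7 of the 8 tested members did not overlap in CPM, which was also true of 76.5% of all genes tested. Between EGCG and Vehicle no member was without overlap, against 11.9% of all genes tested.

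To compare the members with each other, CPM was divided by gene length (RPKM, per kilobase). Averaged over the 4 libraries, the order of levels was Csf1r at 370.2 RPKM, Csf2ra at 231 RPKM, Spi1 at 165 RPKM, Csf2rb at 162 RPKM, Csf3r at 63.8 RPKM, Irf8 at 40.0 RPKM, Csf1 at 37.1 RPKM, Runx1 at 15.2 RPKM and Il34 at 0.0288 RPKM. With the gene lengths of the deposited tables, only some steps of this order exceeded the spread over libraries. The range of Csf1r, 245 to 492 RPKM, overlapped that of Csf2ra, 158 to 307 RPKM, and Csf2ra overlapped Spi1 (159 to 173 RPKM) and Csf2rb (147 to 180.3 RPKM). Csf3r (27.2 to 101 RPKM), Irf8 (34.9 to 44.7 RPKM) and Csf1 (24.1 to 50.2 RPKM) overlapped each other, and Runx1 (13.7 to 16.9 RPKM) lay below all of these and above Il34. In both libraries of replicate 1 Csf2ra stood above Csf1r, at 307 against 245 RPKM in Vehicle and 293 against 259 RPKM in EGCG, and in both of replicate 2 Csf1r stood above Csf2ra, at 486 against 158 RPKM and 492 against 165.5 RPKM. In the same way Csf1 was above Csf3r in replicate 1 and Csf3r above Csf1 in replicate 2. The place of Csf2ra and Csf1r depended on the gene model, since GENCODE M21 gives exon lengths of 2871 and 5774 bases where the deposited tables give 1849 and 4885. With the GENCODE lengths the mean was 313 RPKM for Csf1r and 149 RPKM for Csf2ra, the latter below Spi1 and Csf2rb. Csf1r then ranged from 207 to 416 RPKM and Csf2ra from 102 to 198 RPKM, without overlap, and Csf1r was above Csf2ra in every library, so the exchange of order between the replicates holds with the deposited lengths alone.

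**Figure D2:**
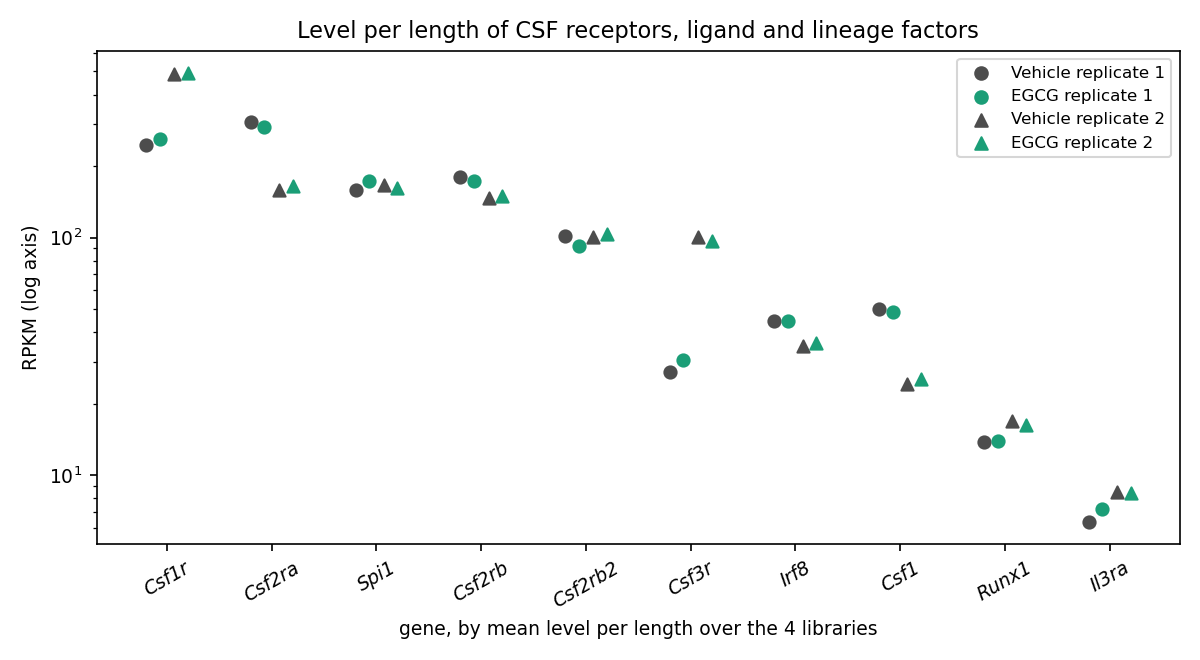
Level per kilobase (RPKM, log axis) in each library of the 8 tested members and of the receptor chains Csf2rb2 and Il3ra, in descending order of the mean over the 4 libraries. Csf1r leads with a mean of 370.2 RPKM and Runx1 is the lowest member at 15.2 RPKM, and neighbouring members from Csf1r to Csf2rb, and from Csf3r to Csf1, overlap with the deposited gene lengths used here.

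The plot of levels per kilobase shows that Spi1, Irf8 and Runx1 had narrow ranges and the receptors Csf1r, Csf2ra and Csf3r wide ones. The receptor Csf2rb, at 147 to 180.3 RPKM, also had a narrow range. Csf2rb2 lay between 92.2 and 103 RPKM, below every library of Csf2rb, and Il3ra between 6.38 and 8.47 RPKM. Within its own family Spi1 was the leading gene: of 26 ETS factors, 19 of which were tested, it had 165 RPKM and the next were Ets2 at 24.7 RPKM and Etv5 at 20.0 RPKM. Every Spi1 library, from 159 to 173 RPKM, was above every library of those 2 genes. Of 9 IRF factors Irf8, with 40.0 RPKM, came after Irf5 with 56.4 RPKM and Irf7 with 53.0 RPKM, genes of the interferon response, and in each library both were above Irf8. Of the 3 Runt factors Runx1 had 15.2 RPKM, Runx3 1.53 RPKM and Runx2 1.11 RPKM, and Runx1 was above both in every library.

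Between EGCG and Vehicle, none of the 8 tested members was called with treatment as the only term. Across all genes tested 0.116% were called, 16 genes, so a count of 0 among 8 is near the background. The p-values of the members ran from 0.802 for Spi1 to 0.991 for Csf1, and every adjusted p was 1.00. The log2 difference, EGCG minus Vehicle, was 0.04 (SE 0.51) for Csf1r, -0.01 (SE 0.51) for Csf1, -0.02 (SE 0.47) for Csf2ra, -0.02 (SE 0.22) for Csf2rb and -0.01 (SE 0.88) for Csf3r. For the lineage factors it was 0.04 (SE 0.15) for Spi1, 0.02 (SE 0.21) for Irf8 and -0.02 (SE 0.18) for Runx1. The 95% intervals were wide, because this fit counts the difference between replicates as error: for Csf3r the interval ran from 0.180 to 5.47 times the Vehicle level, for Csf1r from 0.380 to 2.78 times, and for Spi1 from 0.767 to 1.38 times.

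With the replicate number as a block, which compares EGCG with Vehicle inside each replicate, the intervals narrowed and the members still had no call. All 8 intervals lay between -0.19 and 0.23 on the log2 scale, and the smallest p was 0.522, for Csf1r, in edgeR and 0.497 in DESeq2 with the same block. The blocked fits called 3.21% of all genes in edgeR and 1.11% in DESeq2, 444 and 153 genes against 16 without the block. Inside a replicate the largest difference of any member was 0.16 on the log2 scale, for Csf3r in replicate 1, where replicate 2 gave -0.06. In 7 of the 8 members EGCG lay on opposite sides of Vehicle in the 2 replicates. Csf1r was the exception, with 0.08 in replicate 1 and 0.02 in replicate 2, and a blocked difference of 0.05 (SE 0.07). The values for Csf1 were -0.05 and 0.08, for Csf2ra -0.07 and 0.06, and for Csf2rb -0.06 and 0.02. For Spi1 they were 0.12 and -0.04, for Irf8 -0.01 and 0.05, and for Runx1 0.02 and -0.05.

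**Figure D3:**
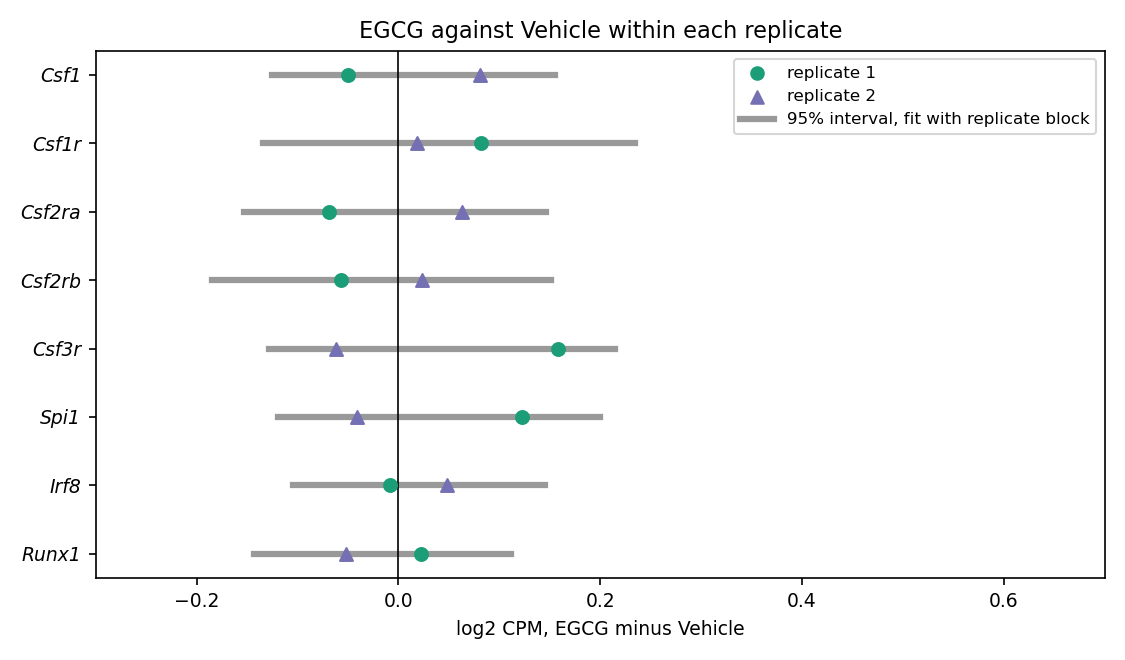
Difference in log2 CPM, EGCG minus Vehicle, of each tested member in replicate 1 (circles) and replicate 2 (triangles), with the 95% interval of the edgeR fit with the replicate block as a bar. Each bar includes 0, and the points of one gene lie on opposite sides of 0 except for Csf1r.

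The plot of differences within each replicate shows points between -0.07 and 0.16, with bars that reach from -0.19 for Csf2rb to 0.23 for Csf1r. A p that misses the threshold does not show equal levels. The bars rest on pairing the libraries of one number, which the labels do not state. Without the block the intervals were far wider, from -2.476 to 2.451 for Csf3r and from -1.395 to 1.474 for Csf1r. Changes larger than the bars are therefore not excluded.

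The members differed far more between the replicates. Replicate 2 against replicate 1, with both treatments in each, gave a call for 7 of the 8 tested members in a setting where 55.5% of all genes were called. Of these 7, 3 were higher in replicate 2 (background 28.5%) and 4 lower (background 27.0%), and the same 7 had an adjusted p below 0.1 (background 56.7%). With a background this high, a count of 7 of 8 is not particular to the members. The libraries of one number share a deposited table and may share a culture, so the p-values rest on the spread between libraries of one number, as few as 1 culture each. The differences are those of these replicates and are not attributed to any treatment.

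Of the members higher in replicate 2, Csf3r was 3.43-fold higher (95% interval 3.07 to 3.83, edgeR adjusted p = 6.9e-06) and Csf1r 1.94-fold (1.71 to 2.20, adjusted p = 9.09e-05). Runx1 was also higher (log2 difference 0.26, SE 0.05, adjusted p = 0.00511). Of the members lower in replicate 2, Csf1 was 1.99-fold higher in replicate 1 than in replicate 2 (log2 difference, replicate 2 minus replicate 1, -0.99, SE 0.06, adjusted p = 2.13e-05) and Csf2ra 1.85-fold (-0.89, SE 0.06, adjusted p = 4.19e-05). Irf8 was 1.25-fold higher in replicate 1 (-0.33, SE 0.05, adjusted p = 0.0019). Csf2rb had -0.26 (SE 0.07, adjusted p = 0.0178) and was the weakest of the calls, since without Vehicle replicate 2 it was -0.23 with an unadjusted p = 0.0579 in edgeR, and summed with its near-identical neighbour Csf2rb2 it was -0.16 with an unadjusted p = 0.0632. Spi1 was not called, with -0.01 (SE 0.06, adjusted p = 0.868) and an interval from -0.16 to 0.14. The differences in Vehicle and in EGCG were close to each other: for Csf1r they were 0.99 and 0.93, for Csf3r 1.89 and 1.67, for Csf1 -1.06 and -0.93, and for Csf2ra -0.95 and -0.82.

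Other cell-type markers moved with this comparison. The microglial sum was 6593 and 7347 CPM in replicate 1 and 9650 and 9313 CPM in replicate 2, with 7 of the 13 markers higher and 4 lower. The dendritic and monocyte sum was 52.8 and 57.9 CPM in replicate 1 and 10.2 and 8.54 CPM in replicate 2. Without Ly6c2, a monocyte gene at 40.2 and 43.4 CPM in replicate 1 and 1.06 and 0.344 CPM in replicate 2, that sum was 12.7 and 14.5 CPM against 9.08 and 8.19 CPM. The neuron sum was 18.6 and 17.6 CPM in replicate 1 against 1.15 and 1.76 CPM in replicate 2, and the endothelial sum 7.71 and 5.74 CPM against 19.7 and 16.5 CPM. Of the 6 neuron markers 4 were tested, with 0 called higher in replicate 2 and 2 lower. Of the 5 endothelial markers 3 were tested, with 1 called higher and 1 lower. Their median log2 difference was -0.789, so the endothelial list did not share the direction of its sum. Among all genes tested 28.5% were called higher and 27.0% lower. The part that cell composition has in the replicate differences of Csf1r, Csf3r, Csf1 and Csf2ra was not tested.

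The rest of the CSF system was taken from lists of 86 genes, of which 79 were tested. Of the other ligands and receptors Csf2, Il5 and Flt3, the receptor of the FLT3 ligand, had 0 counts in every library, which allows up to 0.0544 to 0.0936 CPM in each. Il3 had 1 count, in EGCG replicate 1, and Il5ra 1 count, in Vehicle replicate 1. Csf3, the ligand of the Csf3r receptor, had 0 counts with Vehicle and 3 with EGCG in replicate 1, and 3 and 10 in replicate 2, of which only the last exceeds the floor, at 0.181 CPM. Kit, the receptor of stem cell factor, had 5, 9, 0 and 8 counts in Vehicle replicate 1, EGCG replicate 1, Vehicle replicate 2 and EGCG replicate 2. Ptprz1, a phosphatase that also binds IL-34, had 64, 51, 5 and 48 counts in that order.

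Il3ra, the alpha chain of the interleukin 3 receptor, had 18.9 and 21.4 CPM in replicate 1 and 25.1 and 25.0 CPM in replicate 2, a log2 difference of 0.32 (SE 0.08, edgeR adjusted p = 0.0154). Flt3l, a growth factor of dendritic cells, was likewise higher in replicate 2, at 3.30 and 3.15 CPM against 1.89 and 2.09 CPM (adjusted p = 0.0253). Kitl, which encodes stem cell factor, was lower there, at 16.6 and 17.6 CPM against 23.1 and 26.2 CPM (adjusted p = 0.00244). Csf2rb2 did not differ between the replicates beyond the test (log2 difference 0.07, adjusted p = 0.419). Of 7 tested genes in this list, 2 were higher in replicate 2 and 2 lower at an unadjusted p below 0.05, which is 57.1% beside a background of 55.5%.

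Between EGCG and Vehicle none of the 79 pathway genes was called with treatment as the only term. With the replicate block in edgeR 7 were called, 8.86% of those tested beside 3.21% of all genes, while the blocked DESeq2 fit called 2. The lists were chosen with earlier results of these data known, so the larger share is no independent result. Of the 7 edgeR calls, 1 was also called by DESeq2, that of Socs3 (unadjusted p = 0.00349), and the other 6 were not, with DESeq2 unadjusted p-values from 0.053 for Ccnd1 to 0.264 for Runx2. Every one of the 7 had an edgeR adjusted p of 0.995. Over genes, the EGCG minus Vehicle differences of replicate 1 and of replicate 2 had r = -0.05. Socs3, an inhibitor of cytokine receptor signalling, had 25.8 CPM in Vehicle and 17.4 CPM in EGCG of replicate 1 and 85.7 and 72.9 CPM in replicate 2, a blocked difference of -0.39 (SE 0.10, unadjusted p = 0.00869 in edgeR). It was lower with EGCG in both replicates, and so was Stat3, which encodes a transcription factor activated by G-CSF, at -0.13 (edgeR unadjusted p = 0.0421). Sall1, a factor of microglial identity, had -0.19 (edgeR unadjusted p = 0.0272) and Runx2, the relative of Runx1 known from bone, -0.28 (edgeR unadjusted p = 0.0485). Higher with EGCG in both replicates were Ccnd1, a cyclin of cell cycle entry, at 0.21 (edgeR unadjusted p = 0.0163), Mitf, a macrophage and pigment cell factor, at 0.15 (edgeR unadjusted p = 0.0493), and Id2, an inhibitor of helix-loop-helix factors, at 0.12 (edgeR unadjusted p = 0.0471). The other DESeq2 call was Bhlhe40, a helix-loop-helix repressor, at 0.21 (DESeq2 unadjusted p = 0.0466, edgeR unadjusted p = 0.0854), with differences of 0.02 in replicate 1 and 0.43 in replicate 2.

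Between the replicates 58 of the 79 pathway genes were called, 37 higher in replicate 2 and 21 lower, 73.4% against 55.5% of all genes. These shares are not a like comparison, because the background takes in every gene with 10 or more summed counts. The lists were also chosen with earlier results of these data known, and the excess was not tested. Of 25 genes of CSF receptor signalling, 15 were higher and 4 lower, with a median log2 difference of 0.34 against -0.003 for all genes tested. Of 12 feedback and response genes 3 were higher and 5 lower, with a median of -0.003, and of 35 tested lineage factors 17 were higher and 10 lower, with a median of 0.13. The genes named next were chosen after their values were seen. Among kinases and phosphatases downstream of the receptors, Jak2 was higher in replicate 2, at 160.4 and 172 CPM against 91.5 and 92.3 CPM in replicate 1 (edgeR adjusted p = 3.89e-05), and the same direction held for Lyn, Pik3cd and Ptpn6. Among lineage factors Cebpa, a factor of myeloid progenitors, was 1.98-fold higher in replicate 1 (edgeR adjusted p = 2.21e-05). Cbfb, the partner of Runx1, and Tyrobp, an adaptor of myeloid receptors, had differences of 0.01 each and were not called (edgeR adjusted p = 0.884 and 0.933).

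**Figure D4:**
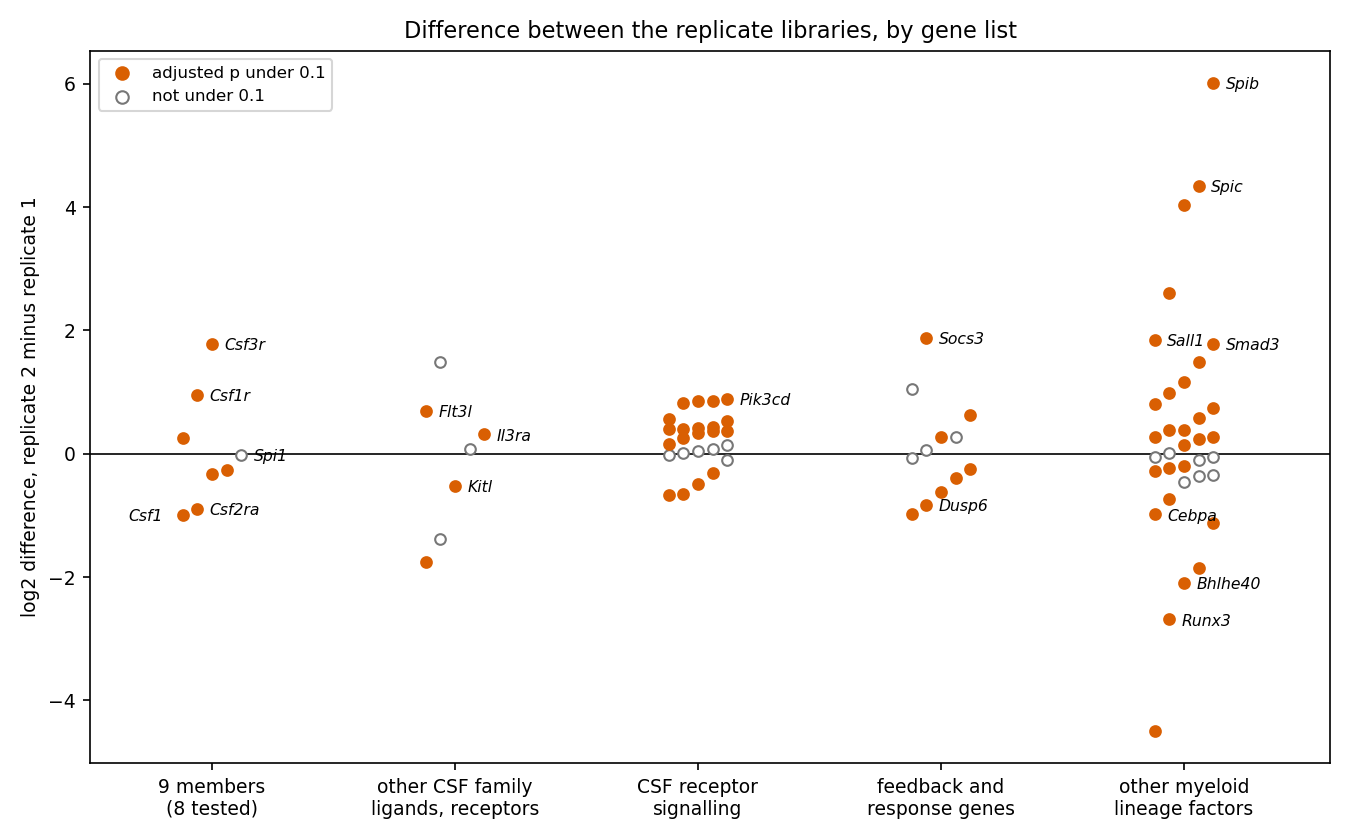
Difference in log2 level, replicate 2 minus replicate 1, of the tested members and of the tested genes in the 4 pathway lists, with filled points for an adjusted p below 0.1 in edgeR. Of the members, Csf3r is highest and Csf1 lowest, Spi1 lies near 0, and the other lineage factors reach further from 0 than the members do; the labelled list genes were chosen after their values were seen.

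The plot of replicate differences by list sets the members beside the rest of the system. Most signalling genes lie within 1 log2 unit of 0, as do 7 of the 8 tested members, and Csf3r at 1.78 lies outside.

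Finally, the genes whose pattern over the 4 libraries was most like that of a member were sought among 8355 genes with a mean of at least 10 CPM, by Euclidean distance of log2 CPM centred on each gene's mean. For Csf1r the nearest were Nuak1 (distance 0.0230), Irak4 (0.0334) and Mob3c (0.0383), and 197 genes lay within 0.2. Nuak1 had 35.0 CPM in Vehicle replicate 1, 37.2 CPM in EGCG replicate 1, 70.3 CPM in Vehicle replicate 2 and 72.0 CPM in EGCG replicate 2, which follows the order of Csf1r at a far lower level. For Spi1 they were Ppp2cb, Ttc33 and Fastkd3, with 2616 genes within 0.2. For Irf8 they were Sfr1, Rbms1 and Sirt1, with 1428 genes within 0.2, and for Runx1 Erlin2, Golga3 and Cherp, with 2463. With 4 libraries, such likeness is shared by many genes. The distance is not scaled to the size of a gene's differences, so the number of neighbours within 0.2 also reflects that size. Csf1r, which had the fewest, also had the largest difference between replicates of the 4 genes.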

How the data were processed

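RNA of primary CD1 microglia was sequenced as poly-A-selected, directional, paired-end libraries. The deposited tables hold raw counts per gene, with HISAT2 and build GRCm38.p6 named in the submitters' processing notes, while the counting program is not given in the sources used here. The tables also list gene length, which the authors deposited beside the counts, and unannotated loci, which each table names on its own and which were not used. Each replicate has 1 table, and no other columns of samples were present.

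The members and lists were chosen with earlier results of these data known. Named were all 9 members, the other CSF family ligands and receptors, any other gene of the pathway lists (marker lists not included) with an unadjusted p below 0.05 for treatment with or without the block, the leading genes of the ETS and IRF families, all Runt genes, and the 3 genes nearest to Csf1r, Spi1, Irf8 and Runx1. Single cell-type markers, and genes that overlap or resemble a member, were also named. Mmp8 and Ly6c2 were picked because they lead their marker sums. Any further gene is marked in the text.

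The 4 libraries held 33805071 to 54970300 counts over 54532 genes in both tables. Of 22046 protein-coding genes, the 13811 whose counts over the libraries summed to 10 or more were fitted in edgeR 4.0.16 (R 4.3.3) with TMM factors and its two-sided quasi-likelihood test, with treatment, or replicate, as the only term. CPM and RPKM used the TMM-scaled totals. Alternatives were DESeq2 1.42.0, the replicate block, other scalings, filters and gene classes, and leaving out each library. Chosen after seeing the data were summing Csf2rb with Csf2rb2, the GENCODE M21 gene length, and the dendritic and monocyte sum without Ly6c2. The fits were tested on simulated data. Similar transcripts were found with BLAST 2.17.0, and promoters came from RefSeq. Figures were drawn with matplotlib 3.10.9.

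The replicate number marks a shared table. The difference between replicates in Vehicle and in EGCG had r = 0.64 over the genes tested, and genes do not stand for independent samples. This value cannot show whether libraries of one number came from one culture, because anything else they share would also raise it.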

Additional observations from a re-analysis of the deposited data

How the results depend on the processing

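No member was called between EGCG and Vehicle under any alternative run, with or without the replicate block. Over all genes, the 16 calls became 444 and 153 with the replicate block in edgeR and DESeq2, 3 with 10 counts required in every library and 35 with all biotypes. Leaving out 1 library gave 8 to 131 calls: 8 without EGCG replicate 1, 57 without Vehicle replicate 2 and 131 without EGCG replicate 2. Genes with an adjusted p below 0.1 numbered 0, against 1 with the replicate block in edgeR, 7 with it in DESeq2 and 1 in DESeq2 without it. Pathway genes called numbered 0, against 7 and 2 with the replicate block in edgeR and DESeq2, and 0 to 1 with a library left out.

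Signs of treatment differences near 0 were not stable. With the replicate block in edgeR and DESeq2, Csf1 had 0.015 and 0.0077 and Csf3r 0.0432 and 0.0368, and Irf8 had -0.0064 under upper-quartile scaling and -0.0175 under total counts. Leaving out 1 library, the log2 difference ranged from -0.55 to 0.62 for Csf1, -0.53 to 0.61 for Csf1r, -0.50 to 0.53 for Csf2ra, -0.18 to 0.14 for Csf2rb, -1.10 to 1.21 for Csf3r, -0.0094 to 0.058 for Spi1, -0.17 to 0.21 for Irf8 and -0.16 to 0.12 for Runx1. In these fits the lone library of a group is assumed to vary like the others.

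Between replicates, 6 to 7 members were called with a library left out, the missing one being Csf2rb without Vehicle replicate 2 (-0.23). Csf2rb summed with Csf2rb2 was -0.16. Spi1 ranged from -0.0778 to 0.0437 with a library left out and was 0.0655 with total counts. The mean level of Csf2ra was 148.8 RPKM with the GENCODE M21 length, and its overlap with Csf1r was then lost. Between replicates the other 6 tested members kept their direction and call under every alternative run. The counts of Il34 limit any statement on it.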
